A study of Mus musculus with 2 samples.

Results

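Genes of the Wnt pathway were compared between mammary basal cells grown alone and basal cells grown with M2-like macrophages. The genes were taken from the count table by symbol: the Wnt ligands, the Frizzled receptors, the families of Dkk, Sfrp and Rspo genes, Lgr4, Lgr5 and Lgr6, the genes whose symbol begins with Tcf7, Axin1 and Axin2, and 16 further genes of ligand processing, reception and transduction. This gave 67 genes of 49492 in the table, of which 66 are protein-coding and 1, Rspo4os, is an antisense RNA. The rule uses symbols and no measured value, although earlier results of these data were known when it was set.

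The study asked how macrophages act on mammary basal cells, the outer epithelial layer that also holds mammary stem cells. Lineage-negative CD24+CD29hi basal cells of adult female mice, with the genotype given as WT, were grown in a 3D matrix for 11 to 14 days and their RNA was sequenced. The ctrl group, with the treatment given as none, held 1 library of basal cells cultured alone. The M2 group held 1 library of basal cells that shared a well with bone marrow-derived macrophages, polarised with Il-4 and Il-13 and kept behind a porous membrane. Cells of both groups received the same serum-free medium with EGF, insulin, transferrin and selenium, and the methods name no Wnt protein or R-spondin in it. The macrophages were replaced during the culture, and their own RNA was not meant to be in the library. The basal keratins Krt14 (1698 and 1361 RPKM, reads per kilobase of gene scaled to library size) and Krt5 (937 and 1325 RPKM) were high in ctrl and M2, as was the luminal keratin Krt8 (603 and 699 RPKM). How many mice or wells gave each library is not given in the sources used here.

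Wnt ligands are secreted, lipid-modified glycoproteins. In the canonical branch a ligand binds a Frizzled receptor together with Lrp5 or Lrp6, which stops the Axin and Apc complex from marking β-catenin for destruction, so that β-catenin reaches TCF/LEF factors on DNA. Other ligands, Wnt5a among them, often act without β-catenin through Ror or Ryk receptors. R-spondins bind Lgr receptors and keep Znrf3 and Rnf43 from removing Frizzled proteins from the surface. In the mammary gland, Wnt signals sustain stem cells of the basal layer, and Rspo1 and Wnt4 are produced by luminal cells in response to hormones.

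Reads in annotated genes numbered 26912610 for ctrl and 29413844 for M2. A gene was tested where both libraries together had at least 10 reads, which 50 of the 67 genes reached. A gene with few reads in 1 library could pass this filter through the other library alone. Differences are given as the log2 fold difference, M2 over ctrl, of reads plus 1 after scaling by library size, with a 95% interval of counting error. A gene is written to have risen or fallen, or is said to be called, where it differed by at least 2-fold with an adjusted p under 0.05 in an exact binomial test on its reads. Levels are given in RPKM or, without division by gene length, in CPM. Neither group was replicated, so the spread between cultures is unknown, and the test compares the 2 libraries and not the conditions. In cultures of mixed cells, fewer cells of a type and less RNA per cell cannot be told apart.

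Of the 50 genes tested, 12 rose and 6 fell in M2, and 32 were not called. Among all 19233 genes tested, 8.16% rose, 6.55% fell and 14.7% did either. The median log2 fold difference of the 50 genes was 0.0056, beside -0.0032 for all genes. Their spread was wider, with quartiles of -0.53 and 0.71 beside -0.32 and 0.35. Ligands held most of the rises, the falls were spread over Frizzled receptors, antagonists, transducers and the R-spondin axis, and the genes read most deeply, such as Ctnnb1, Sfrp1 and Fzd7, were not called. In the exactTest of edgeR, with a coefficient of variation between cultures assumed to be 0.2, 9 rose and 5 fell, and 5.01% and 3.59% of all genes did so. With 0.4 only Dkk2 and Wif1 rose and only Fzd10 and Sfrp2 fell, beside 0.91% and 0.676% of all genes. Dkk2, with 4 reads in ctrl, passed the filter through M2, and Fzd10, with 2 reads in M2, passed it through ctrl. The whole interval lay beyond 2-fold for 10 genes that rose and 5 that fell, beside 4.88% and 3.53% of all genes. Of the 39 pathway genes with at least 1 CPM in both libraries, 4 rose and 4 fell.

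**Figure D1:**
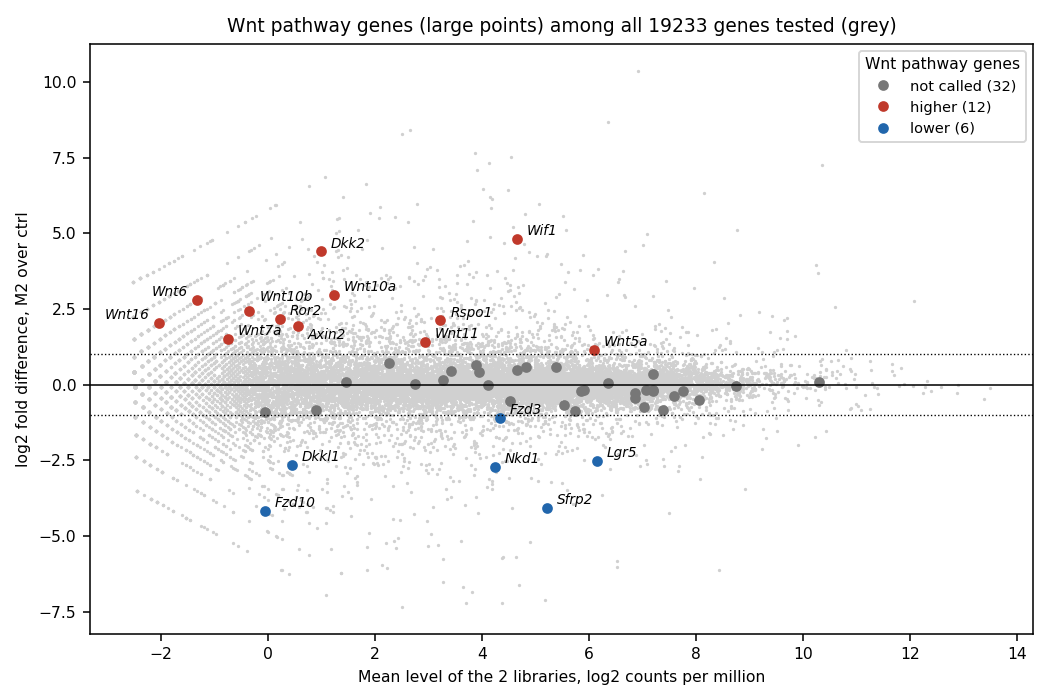
Log2 fold difference, M2 over ctrl, against the mean level of both libraries in log2 CPM, for all 19233 genes tested (grey) and the 50 Wnt pathway genes (large points, coloured by call). Wif1 and Dkk2 lie highest and Fzd10 and Sfrp2 lowest of the pathway genes. Those with the highest levels, such as Ctnnb1, Sfrp1 and Fzd7, were not called.

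The ligands were the role with the most rises. Of 19 Wnt genes 12 were tested, 7 of them rose, 0 fell, and the median of the 12 was 1.28. The share that rose was 58.3%, beside 8.16% of all genes tested, whose median was -0.0032. Wnt6, Wnt16, Wnt10b and Wnt7a had under 10 reads in ctrl and passed the filter through M2, so count and median depend on it. Of the ligands that rose, only Wnt5a and Wnt11 had at least 1 CPM in both libraries. With an assumed variation of 0.2, 4 ligands rose, and with 0.4, 0 did. At the top, Wnt10a (chr1:74791516-74804179), a ligand that acts through β-catenin in skin appendages, had 14 reads in ctrl and 121 in M2. It rose by 2.95 (95% interval 2.24 to 3.96; adjusted p = 1.32e-20, exact binomial test). Its neighbour Wnt6 (chr1:74771892-74785322) lies 6.193 kb away on the same strand and also rose, from 2 to 21 reads. That is a ratio of 10.01 after scaling, with an interval of 2.45 to 88.0, and a log2 difference whose limit nearest to 0 was 1.29. Wnt10b (chr15:98771753-98778150), a ligand of the embryonic mammary line, rose from 6 to 39 reads, by 2.45 (1.38 to 4.16). Wnt1, which lies 11.706 kb from Wnt10b, had 1 read in each library. Both genes of the first pair rose, whereas the second pair could not be compared at this depth. Other ligand pairs within 100 kb were Wnt3a and Wnt9a, 16.175 kb apart, and Wnt9b and Wnt3, 24.328 kb apart. None of these genes was called.

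Wnt5a and Wnt11 carried more reads than the other ligands that rose. Wnt5a (chr14:28504750-28527447), the main ligand of the β-catenin-independent branch, had 1171 and 2721 reads, a difference of 1.15 (1.05 to 1.25). With an assumed variation of 0.2 it was not called. Of its exonic bases, 4.58% are shared with the antisense gene Gm2670, which had 13 and 52 reads. Wnt11 (chr7:98835112-98855195), another ligand mostly of that branch, had 114 and 322 reads and rose by 1.42 (1.12 to 1.75). Wnt7a (chr6:91363981-91411363) rose from 8 to 26 reads, by 1.52 (0.45 to 2.98). Wnt16 (chr6:22288227-22298522) had 2 and 12 reads, a ratio of 5.72 (1.27 to 52.6; adjusted p = 0.0266, exact binomial test). The limit of its log2 interval nearest to 0 was 0.35, and it was the only ligand whose call was lost when the assumed variation was 0.1. The interval of Wnt7a also reached below a 2-fold difference, so both calls rest on few reads.

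Not called were 5 ligands. Wnt5b, a close relative of Wnt5a, had 1694 and 1550 reads and differed by -0.20. Wnt7b, which is made by luminal and basal epithelium, had 316 and 516 reads, a difference of 0.64. Wnt9a had 182 and 195 reads, a difference of 0.03 that turned negative when libraries were scaled by total reads. Wnt4 (chr4:137277489-137299726), the ligand downstream of progesterone, had 73 and 81 reads, 0.634 and 0.670 RPKM, and differed by 0.08 (-0.39 to 0.56). The interval of Wnt4 leaves out a 2-fold difference in either direction as far as counting error goes. Wnt2b had 35 and 19 reads, a difference of -0.92. Too few reads for a test were found for Wnt9b (3 and 5) and Wnt2 (1 and 0), and Wnt3, Wnt3a, Wnt8a and Wnt8b had 0 in both. A count of 0 allows up to 3 reads, or 0.109 CPM in ctrl and 0.104 in M2.

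Levels can be compared between genes per length, in RPKM. The summed level of the 19 ligands was 35.7 RPKM in ctrl and 45.0 in M2, a ratio of 1.26. Without Wnt5a the sums were 30.3 and 32.9, a ratio of 1.09. Wnt5b took 65.0% of the ligand level in ctrl and 45.0% in M2, and Wnt5a took 15.3% and 26.8%. These 2 relatives ranked as the highest ligands of both libraries. Without either of them the sums were 7.03 and 12.7, a ratio of 1.80. Wnt10a moved from the eighth to the sixth place with 0.207 and 1.70 RPKM. The rises of Wnt6, Wnt10b, Wnt7a and Wnt16 took place at levels under 1 RPKM in both libraries.

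**Figure D2:**
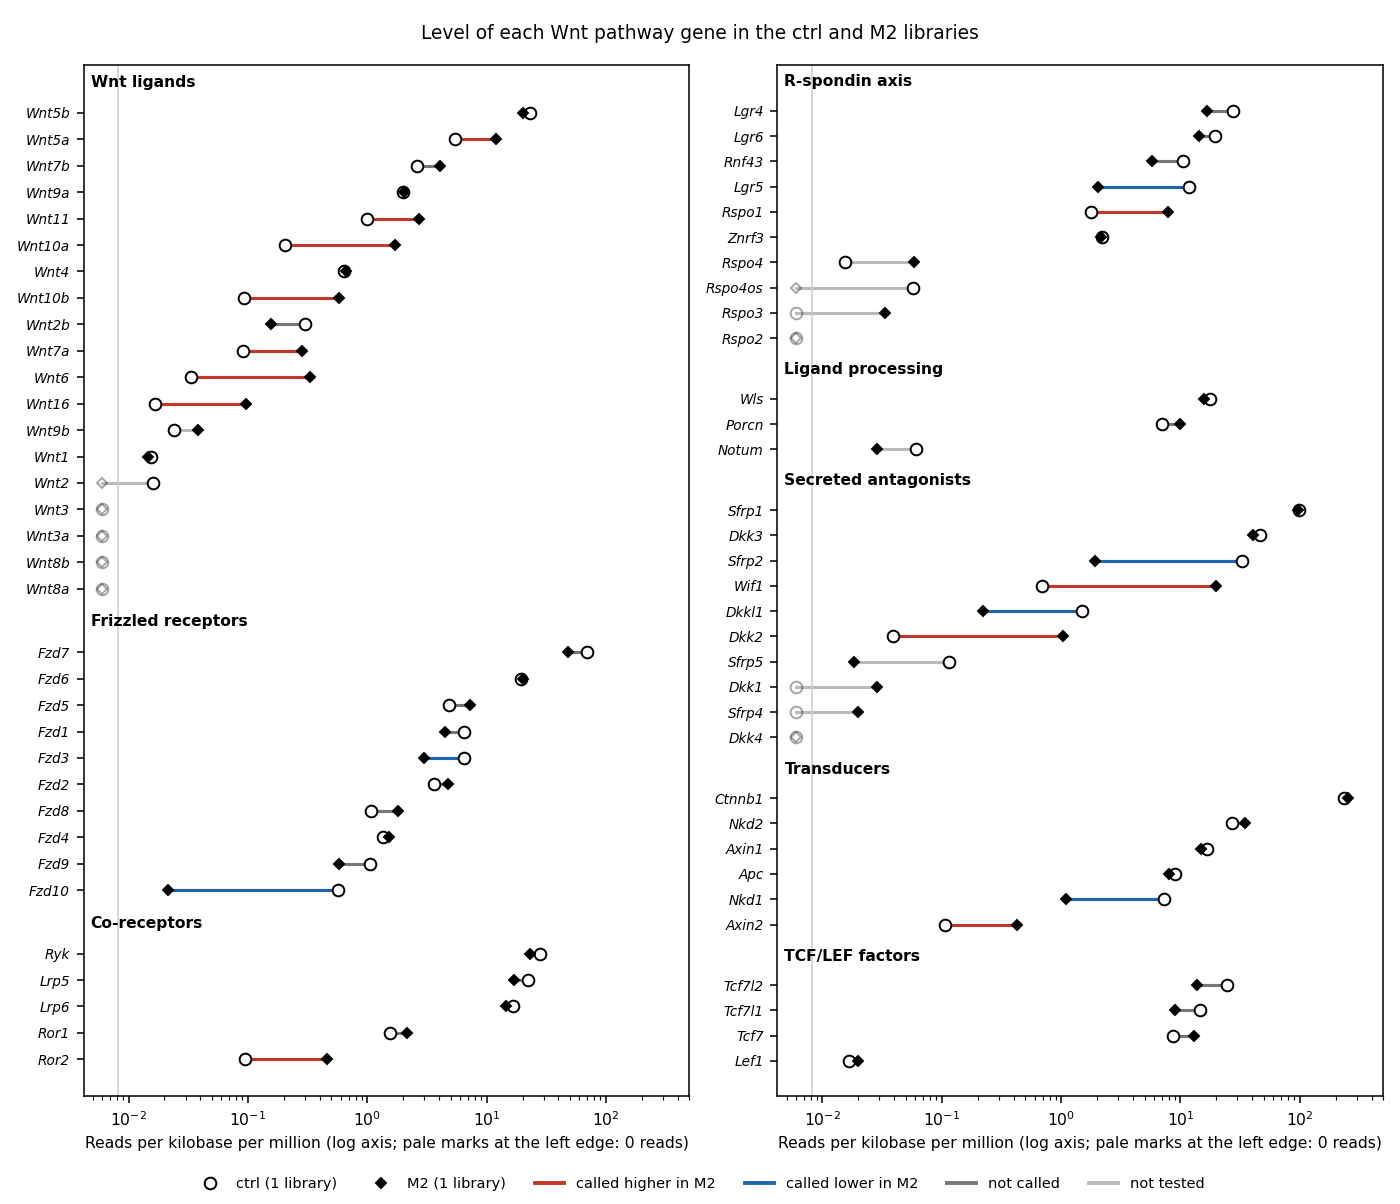
Level of each of the 67 genes in ctrl (open circles) and M2 (filled diamonds) in RPKM on a log axis, grouped by role, with pale marks at the left edge for 0 reads. Wnt5b and Wnt5a lead the ligands, Fzd7 the Frizzled receptors and Ctnnb1 all genes in both libraries, while the longest lines belong to Wif1, Dkk2, Fzd10 and Sfrp2.

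Sequence before the start was looked at for genes with a promoter in the RefSeq table (GRCm38.p6), which held 54 promoters of 44 of the 67 genes. The 250 bases before each start were searched on both strands for the TCF/LEF letters, CTTTG followed by 2 bases that are each A or T. They were found in 6 of 54 promoters, or 11.1%, beside 14.8% of 32851 promoters of all genes. Among promoters of genes that rose, 1 of 11 held them, that of Wnt11, and among those of genes that fell 0 of 4 did. The promoter of Wnt11 is shown because it also holds TATAAA, searched on the strand of the gene and found in 7.59% of all promoters. It is chr7:98834862-98835111, plus strand, and capitals mark the TCF/LEF letters, here on the opposite strand, and TATAAA.
Wnt11: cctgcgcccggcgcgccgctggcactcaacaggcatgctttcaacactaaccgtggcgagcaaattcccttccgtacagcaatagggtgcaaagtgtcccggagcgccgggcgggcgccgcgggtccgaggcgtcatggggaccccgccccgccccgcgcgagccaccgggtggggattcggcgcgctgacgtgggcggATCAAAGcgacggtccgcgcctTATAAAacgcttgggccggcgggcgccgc
The TCF/LEF letters lie 51 bases and TATAAA 29 bases before the start. The NF-kB motif, searched on both strands, was found in 7.25% of all promoters and in 4 of the 54, among them those of Wnt10b and Wnt16, which rose. Promoters of the pathway genes were rich in G and C, with a median of 65.8% beside 52.4% for all promoters, and held a median of 18.5 CpG beside 6. A match of letters is no evidence of binding.

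Of the 10 Frizzled receptors, the membrane receptors of the ligands, 0 rose and 2 fell, and their median was -0.24. The share that fell was 20%, beside 6.55% of all genes tested, of which 8.16% rose. Fzd10 (chr5:128600844-128604093) had 51 reads in ctrl and 2 in M2. It was 26.8-fold lower in M2 with an interval of 7.04 to 227 (adjusted p = 3.84e-13, exact binomial test), and the limit of its log2 interval nearest to 0 was -2.81. Fzd3 (chr14:65201026-65262463), known for its part in planar cell polarity, fell from 754 to 367 reads, by 1.11 on the log2 scale with an interval of -1.29 to -0.93, and was not called with an assumed variation of 0.2. Fzd7, the main Frizzled of the mammary basal layer, had 8612 and 6294 reads and differed by -0.52. Fzd6 followed with 2212 and 2395 reads, a difference of 0.05 that turned negative under scaling by total reads. The other 6 lay between -0.85 and 0.73, with 66 and 38 reads for Fzd9, 751 and 543 for Fzd1, 249 and 293 for Fzd4, 362 and 506 for Fzd2, 921 and 1438 for Fzd5 and 99 and 173 for Fzd8. Fzd5 shares 17.8% of its exonic bases with the opposite-strand gene Gm38058 (85 and 118 reads).

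The summed Frizzled level was 114 RPKM in ctrl and 91.7 in M2. Fzd7 took 60.6% and 52.5% of it, and Fzd6 took 17.1% and 21.9%. Fzd5 moved from the fifth to the third place without being called. The receptor repertoire was thus led by the same 2 genes in both libraries, and Fzd3, the larger of the genes that fell, took 5.69% of the ctrl level and 3.29% of the M2 level.

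Among the co-receptors, only Ror2 was called. Ror2 (chr13:53109312-53286124), a tyrosine kinase-like receptor of Wnt5a, rose from 11 to 56 reads, by 2.18 (1.33 to 3.36). Its level stayed low, at 0.0944 and 0.458 RPKM. Ror1, its relative, had 246 and 355 reads, a difference of 0.46. The LDL receptor relatives of the canonical branch, Lrp5 (5955 and 4798 reads) and Lrp6 (6308 and 5751 reads), differed by -0.38 and -0.20. Ryk, which had the highest level of the 5 in both libraries, had 3478 and 2997 reads and differed by -0.28. The ligand Wnt5a and its receptor Ror2 therefore both had more reads in M2, whereas Ryk had fewer without reaching 2-fold.

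In the R-spondin axis 1 gene rose and 1 fell of 6 tested, with a median of -0.59. Each share was 16.7%, beside 8.16% and 6.55% of all genes tested. Rspo1 (chr4:124986430-125009099), a ligand of Lgr receptors, had 95 reads in ctrl and 438 in M2. It rose by 2.12 (1.81 to 2.47; adjusted p = 3.70e-49, exact binomial test), from 1.78 to 7.84 RPKM. It was the only R-spondin with enough reads, since Rspo2 had 0 in both libraries, Rspo3 had 0 and 3, Rspo4 had 1 and 4, and its antisense Rspo4os had 2 and 0. Lgr5 (chr10:115450311-115587780), an R-spondin receptor and a stem cell marker of many epithelia, went the other way. Its 3322 reads in ctrl became 602 in M2, and it fell by 2.53 on the log2 scale, with an interval of -2.66 to -2.41, from 11.8 to 2.04 RPKM. Ligand and receptor thus moved in opposite directions in these libraries.

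The other members of the axis were not called. Lgr4 (4467 and 2823 reads) and Lgr6 (3688 and 2824 reads), the other receptors, differed by -0.73 and -0.45. Rnf43, a ubiquitin ligase that removes Frizzled proteins and is itself induced by Wnt signals in other epithelia, had 1888 and 1091 reads, a difference of -0.86. Its partner Znrf3 had 475 and 492 reads, a difference of -0.02. Lgr5 took 16.0% of the summed level of the axis in ctrl and 4.17% in M2, and Rspo1 took 2.43% and 16.1%. All 3 receptors had fewer reads in M2 after scaling, and only Lgr5 did so by over 2-fold.

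Luminal genes, hormone-sensing ones among them, and the receptor of oxytocin are given beside these values, since Rspo1 and Wnt4 are hormone-controlled. Of 16 luminal genes 2 rose and 6 fell, or 12.5% and 37.5%, beside 8.16% and 6.55% of all genes tested. The receptors of progesterone, Pgr (3195 and 575 reads, -2.54), of estrogen, Esr1 (1028 and 281 reads, -1.94), and of prolactin, Prlr (3967 and 1379 reads, -1.59), fell, as did Foxa1. Kit and Elf5, luminal genes not counted here as hormone-sensing, fell too. Prom1, which marks hormone-sensing cells, rose (285 and 1125 reads, 1.91), as did the luminal keratin Krt7. Of other hormone-sensing genes, Cited1 (197 and 369 reads, 0.83) and Ly6a (314 and 447 reads, 0.44) had more reads in M2 and were not called. The 4 luminal genes with the most reads, Aldh1a3, Krt8, Epcam and Krt18, lay between -0.05 and 0.31 and were not called. Of 13 basal genes 1 rose and 1 fell, or 7.69% each (Krt17 by 1.39, and Oxtr by -2.18), with Krt14, Krt5, Itgb1 and Tagln not called. The luminal genes did not move in 1 direction, and the part of luminal cells in the value of Rspo1 was not tested.

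Genes that process the ligands were not called. Porcn, the acyltransferase that lipidates Wnt proteins, had 577 and 851 reads, a difference of 0.49. Wls, which carries them to the surface, had 4244 and 3954 reads, a difference of -0.17. Notum, a secreted enzyme that removes the lipid, had 4 and 2 reads and was not tested.

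The secreted antagonists held large differences in both directions, among them the largest rises of the 50 genes. Wif1 (chr10:121033960-121100650), Wnt inhibitory factor 1, binds Wnt proteins outside the cell. Its 46 reads in ctrl and 1397 in M2 gave a rise of 4.83 (4.43 to 5.31), from 0.690 to 19.97 RPKM. Dkk2 (chr3:132085292-132180304) is a Dickkopf protein that binds Lrp5 and Lrp6, and it had 4 and 110 reads. It rose by 4.40 (3.31 to 6.61), from 0.0393 to 1.03 RPKM. Sfrp2 (chr3:83766321-83774316), a secreted Frizzled-related protein that binds Wnt ligands, fell from 1924 to 119 reads. The fall was by 4.07 on the log2 scale, with an interval of -4.36 to -3.82, or from 32.5 to 1.92 RPKM. Dkkl1 (chr7:45207519-45212147), a Dickkopf-like gene best known from testis, fell from 65 to 10 reads, by 2.65 with an interval of -3.90 to -1.80.

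The stretches before the starts of Wif1, Dkk2 and Sfrp2 are shown because these 3 genes had the largest differences with over 100 reads in a library. They lie at chr10:121033754-121033959, chr3:132085042-132085291 and chr3:83766071-83766320 on the plus strand of GRCm38.p6, and capitals mark TATAAA, with no TCF/LEF or NF-kB letters in any of the 3.
Wif1: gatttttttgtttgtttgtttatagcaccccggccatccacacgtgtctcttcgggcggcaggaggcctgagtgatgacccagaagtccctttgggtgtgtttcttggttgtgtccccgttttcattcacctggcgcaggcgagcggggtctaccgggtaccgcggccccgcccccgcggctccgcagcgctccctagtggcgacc
Dkk2: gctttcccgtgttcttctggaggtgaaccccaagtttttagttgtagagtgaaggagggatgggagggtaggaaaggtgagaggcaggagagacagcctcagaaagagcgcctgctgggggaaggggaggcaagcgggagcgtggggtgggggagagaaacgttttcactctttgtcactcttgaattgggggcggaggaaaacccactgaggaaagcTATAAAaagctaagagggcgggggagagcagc
Sfrp2: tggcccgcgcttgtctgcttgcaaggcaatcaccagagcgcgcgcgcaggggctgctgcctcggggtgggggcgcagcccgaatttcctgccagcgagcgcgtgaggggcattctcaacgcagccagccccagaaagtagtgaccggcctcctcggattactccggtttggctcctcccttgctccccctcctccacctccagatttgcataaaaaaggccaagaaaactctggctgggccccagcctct
The stretch of Wif1 is 206 bases long, because it ends before the first base of the gene in the count table. In that of Dkk2, TATAAA lies 32 bases before the start. The 250 bases before the start held 21 CpG in Wif1, 16 in Sfrp2 and 7 in Dkk2.

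The antagonists with the highest levels were not called. Sfrp1, the most abundant of them, had 11860 and 12205 reads, a difference of -0.03 (-0.06 to 0.01). Dkk3, a divergent Dickkopf relative, had 4275 and 3913 reads, a difference of -0.20. Too few reads were found for Dkk1 (0 and 2), Dkk4 (0 and 0), Sfrp4 (0 and 1) and Sfrp5 (6 and 1). The summed antagonist level was 180 RPKM in ctrl and 160.5 in M2. Within it, Sfrp1 took 54.9% and 60.4%, Sfrp2 took 18.1% and 1.19%, and Wif1 took 0.383% and 12.4%. The loss of Sfrp2 level, 32.5 to 1.92 RPKM, was thus larger than the gain of Wif1, and Sfrp1 remained above both in each library.

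**Figure D3:**
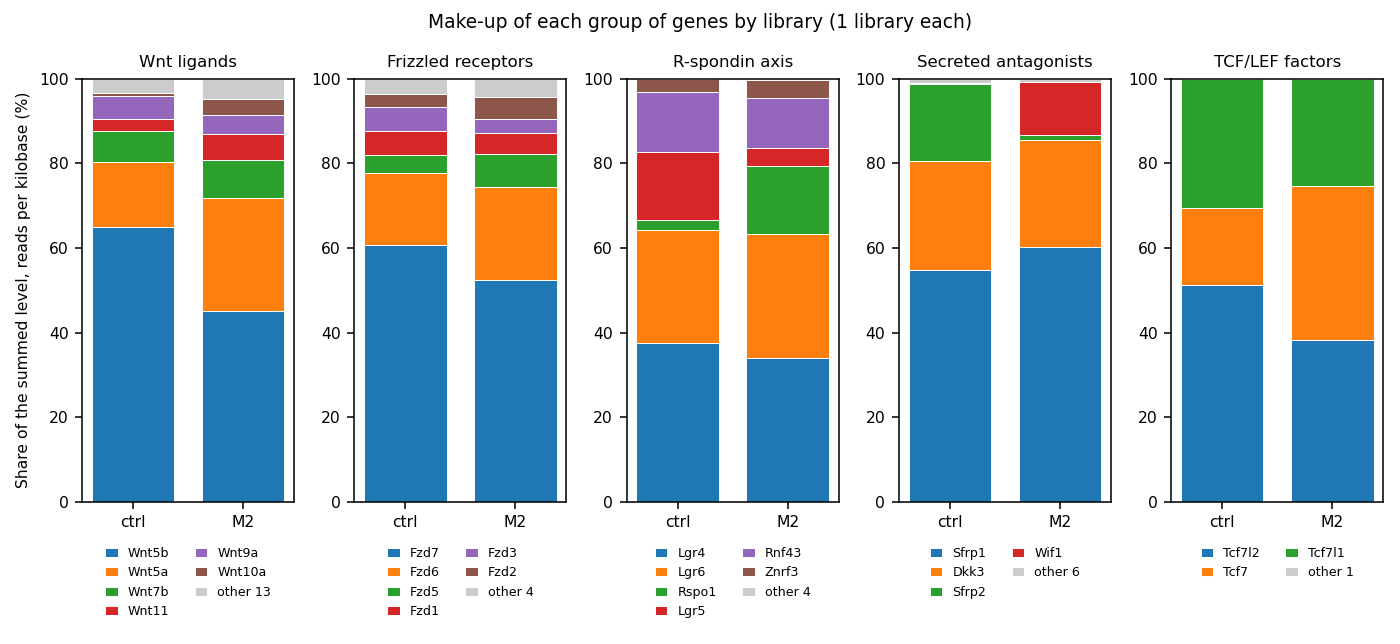
Share of the summed level (RPKM, percent) that each gene took within 5 roles, for the ctrl and M2 libraries. The share of Wnt5a grew among the ligands, Rspo1 and Lgr5 exchanged their order in the R-spondin axis, Sfrp2 gave way to Wif1 among the antagonists, and Tcf7 took more of the TCF/LEF level.

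Other genes moved with Sfrp2 and are given beside it. Sfrp2 shares 16.1% of its exonic bases with the antisense gene Gm26771, which had 793 and 43 reads, a difference of -4.24, so that reads of the pair cannot be told apart without strand. Of 14 fibroblast genes tested in a list of 18, 7 fell and 1 rose, with a median of -1.54. The shares were 50% and 7.14%, beside 6.55% and 8.16% of all genes tested. Col6a3 (-4.24), Col14a1 (-3.12), Col3a1 (-2.61), Pdgfrb (-2.28), Col1a2 (-1.68), Col5a2 (-1.59) and Mmp2 (-1.56) fell, and Dcn rose, from 51 to 157 reads. Pdgfra (607 and 822 reads) and Thy1 (257 and 253 reads) were not called. The summed fibroblast level was 616 RPKM in ctrl and 517 in M2, and it rested mostly on Postn and Fn1, which the epithelium can also make and which were not called. Of the list, 4 genes had 3 reads or fewer in ctrl and 3 in M2, and Pi16, a marker of a fibroblast subset, had 0 in both. The gate on CD24+CD29hi cells before the culture is meant to leave out CD24-negative stroma, and the purity of the sorted cells was not tested here. The part of stromal cells in the fall of Sfrp2 was not tested.

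Macrophages can make Wnt ligands, so their markers are given beside the ligands. The sort before the culture left out CD45+, CD31+ and TER119+ cells. Of 21 macrophage genes, 16 had 3 reads or fewer in ctrl and 13 in M2, and 8 had 0 in each. Adgre1, Ptprc, Tyrobp, Fcer1g, C1qb, C1qc and Chil3 had 0 reads in both libraries. The summed macrophage level was 43.7 RPKM in ctrl and 56.0 in M2, mostly from Arg1 (1507 and 2090 reads), which is not specific to macrophages. Not called were Csf1r, with 94 and 92 reads, and Cd68, with 170 and 165, whereas Aif1 (3 and 40) and Cd163 (2 and 30) rose, and Mertk (64 and 32) fell. Aif1 and Cd163 passed the filter of 10 reads through M2. Of 6 endothelial genes tested, 33.3% rose and 33.3% fell, beside 8.16% and 6.55% of all genes tested. Flt1 (158 and 3263 reads) and Pecam1 (33 and 76) rose, and Kdr (11 and 0) and Cdh5 (11 and 2) fell. Eng (54 and 72) and Vwf (4 and 12) were not called, with Cldn5 at 0 in both. Of 4 adipocyte genes tested, 25% rose and 50% fell. Lep (198 and 6 reads) and Fabp4 (62 and 10) fell, Pparg (9 and 46) rose and Lipe (177 and 243) was not called. The defining marker Adipoq had 2 and 0.

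Inside the cell, Axin2 and Nkd1, both feedback inhibitors that β-catenin induces in many tissues, moved in opposite directions. Axin2 (chr11:108920349-108950783), a scaffold of the destruction complex, had 16 reads in ctrl and 68 in M2. It rose by 1.95 (1.22 to 2.90; adjusted p = 8.04e-08, exact binomial test), from 0.106 to 0.429 RPKM. The antisense gene Gm11670, which shares 3.80% of its exonic bases, had 4 and 20 reads. Nkd1 (chr8:88521354-88594884), which binds Dishevelled, fell from 906 to 144 reads, by 2.71 with an interval of -2.99 to -2.47, from 7.24 to 1.10 RPKM. Lgr5, another common target of β-catenin, fell as well, as described above. Among these targets of the pathway the one with the fewest reads rose and the 2 with more reads fell.

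The promoter of Axin2 is shown because the gene is widely used as a readout of β-catenin. It is chr11:108920099-108920348 on the plus strand, without TCF/LEF, NF-kB or TATAAA letters in this window.
Axin2: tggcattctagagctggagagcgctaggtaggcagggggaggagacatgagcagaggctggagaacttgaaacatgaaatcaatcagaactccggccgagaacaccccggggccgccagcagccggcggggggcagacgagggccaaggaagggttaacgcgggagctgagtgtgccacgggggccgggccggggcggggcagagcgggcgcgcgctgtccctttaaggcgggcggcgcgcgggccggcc
It had 69.2% G and C and 24 CpG.

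The other transducers were close to 0. Ctnnb1 (chr9:120929216-120960507), which encodes β-catenin, had 33415 and 37624 reads, or 234 and 251 RPKM, and differed by 0.10 (0.08 to 0.12). This interval leaves out 0 but lies far below a 2-fold difference, and 14.6% of the exonic bases of Ctnnb1 are shared with Ulk4 on the opposite strand. Apc (3899 and 3606 reads) and Axin1 (1763 and 1625 reads), the core of the destruction complex, differed by -0.18 and -0.19. Nkd2, the relative of Nkd1, had 3516 and 4732 reads, a difference of 0.36. None of these 4 reached 2-fold, and RNA counts do not show the amount or place of β-catenin protein.

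None of the TCF/LEF factors was called. Tcf7l2 had 5844 and 3435 reads, a difference of -0.84, and Tcf7l1, mostly a repressor of targets, had 1564 and 1023 reads, a difference of -0.68. Tcf7 had 619 and 977 reads, a difference of 0.59. Lef1 (chr3:131110471-131224356) had 4 and 5 reads, or 0.0166 and 0.0197 RPKM, and was not tested. Tcf7 took 18.1% of the level of the 4 genes in ctrl and 36.3% in M2, and Tcf7l2 took 51.3% and 38.3%. The order by level, Tcf7l2, Tcf7l1, Tcf7 in ctrl, became Tcf7l2, Tcf7, Tcf7l1 in M2.

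**Figure D4:**
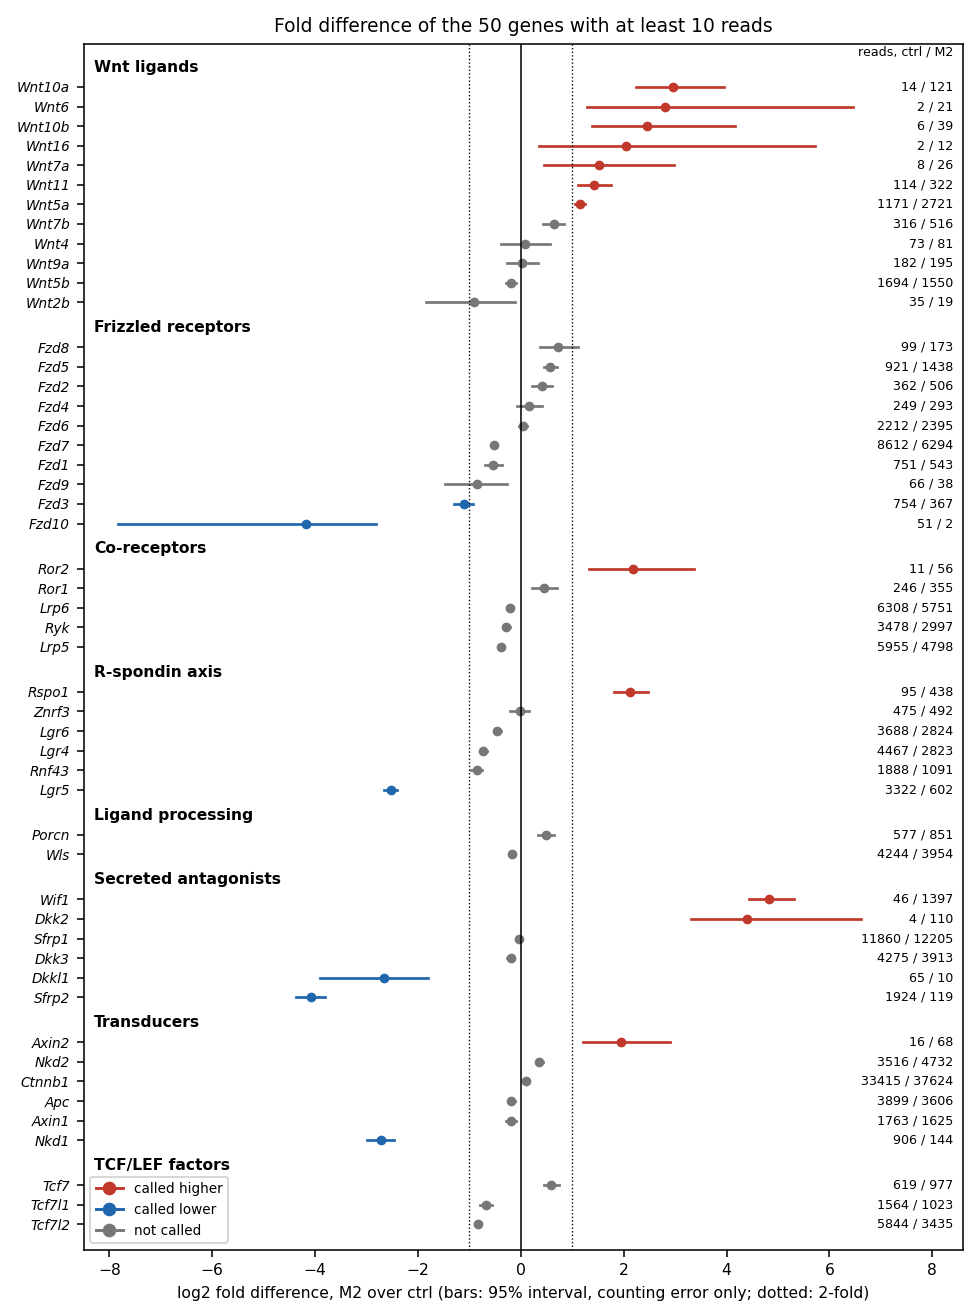
Log2 fold difference, M2 over ctrl, of the 50 genes with at least 10 reads, grouped by role, with bars for the 95% interval of counting error and the reads of ctrl and M2 at the right. The ligands lie mostly right of 0, the Frizzled receptors around it except Fzd10 at the lowest value, and the antagonists run from -4.07 for Sfrp2 to 4.83 for Wif1.

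The rest of the pathway was described with 5 further lists. Of their 102 genes 95 were tested, 6 rose and 9 fell, and the median was -0.10. The shares were 6.32% and 9.47%, beside 8.16% and 6.55% of all genes tested. In the cytoplasm 0 of 25 genes rose and 1, or 4%, fell, beside 8.16% and 6.55% of all genes tested. The gene that fell was Dact3 (303 and 82 reads, -1.94), which antagonises Dishevelled. Gsk3b, Csnk1a1 and Tnks2, kinases and a tankyrase around Axin, lay between -0.22 and 0.05. In the nucleus 0 of 14 genes were called, beside 14.7% of all genes tested. The cofactors Bcl9l, Ep300 and Tle3 lay between -0.28 and -0.04. Dact3 was thus the only gene called in these lists of cytoplasm and nucleus.

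At the cell surface, 4 of 14 genes tested fell and 0 rose, with a median of -0.53. The share that fell was 28.6%, beside 6.55% of all genes tested. Apcdd1 (382 and 65 reads, -2.61), a membrane inhibitor of Wnt ligands and a known target, and Trabd2b (1368 and 542 reads, -1.40), a protease that inactivates ligands, were among those that fell. The others that fell were Ndp (81 and 28 reads, -1.57) and Adgra2 (91 and 40 reads, -1.24). Adgra2 was not called with an assumed variation of 0.2. The heparan sulfate carriers Sdc4 (42110 and 29745 reads), Sdc1 (16087 and 20371 reads) and Gpc4 (2521 and 3589 reads) were not called. Of 21 genes of planar polarity and calcium signals 1 rose and 2 fell, with a median of -0.18. These shares, 4.76% and 9.52%, were near the 8.16% and 6.55% of all genes tested. Those that fell were Prickle2 (978 and 365 reads, -1.49) and Rhou (5377 and 2305 reads, -1.29), while Celsr2 (8774 and 4882 reads, -0.91) and Daam1 (3101 and 4239 reads, 0.38) were not called. Camk2a, the gene that rose, had 1 and 12 reads.

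Of 24 genes known as targets of β-catenin in some tissue, 21 were tested, 5 rose and 2 fell, with a median of 0.19. The shares were 23.8% and 9.52%, beside 8.16% and 6.55% of all genes tested. Plaur (109 and 726 reads, 2.66), the urokinase receptor, and Cd44 (10330 and 37200 reads, 1.78), the hyaluronan receptor, rose most. Procr (68 and 204 reads), Wisp2 (52 and 154 reads) and Fosl1 (70 and 175 reads) rose by 1.50, 1.48 and 1.24. Ephb3 (1850 and 886 reads) fell by 1.13, and Tnfrsf19 had 11 reads and 1 read. Jun (33576 and 25813 reads), Sox4 (12518 and 14946 reads), Ccnd1 (11967 and 11337 reads) and Myc (492 and 602 reads) were not called, with values from -0.45 to 0.22. Most of these genes also answer to other pathways, and Sp5, a direct target in many tissues, had 0 and 1 read. Axin2, Plaur, Cd44, Procr, Wisp2 and Fosl1 rose, and Nkd1, Lgr5, Apcdd1, Ephb3 and Tnfrsf19 fell. With Myc and Ccnd1 not called, the targets did not move in 1 direction.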

How the data were processed

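The deposited table holds raw counts of reads per gene, made by the authors without normalization. The aligner, the counting tool and the use of strand are not given in the sources used here, and without strand, reads of overlapping genes cannot be told apart. The submitters' processing notes name GRCm38 and mm10, and coordinates are those of the table. All 67 gene names occur in GENCODE M21, 57 with the same start and end, and 11 share exonic bases with another gene of the table. The series text speaks of a microarray, but the values are sequencing counts. The labels name an RNeasy kit and a SMARTER kit, and the methods name RNAiso Plus and a HiSeq X sequencer.

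Groups were taken from the labels, with 1 library each. Library sizes were scaled by TMM in edgeR 4.0.16 (R 4.3.3), with factors of 1.02 for ctrl and 0.980 for M2. Log2 fold differences have a pseudocount of 1, and ratios have none. Each gene with at least 10 reads in sum was tested by a two-sided exact binomial test (scipy 1.17.1), adjusted by Benjamini-Hochberg over all 19233 genes, and called at an adjusted p under 0.05 and 2-fold. Intervals are 95% Clopper-Pearson intervals and cover counting error only, as each group has 1 library. No molecular identifiers are stated, so each read was treated as a separate molecule, and intervals and p-values may be too small. Also run were edgeR's exactTest with a coefficient of variation between cultures assumed at 0.1, 0.2 or 0.4, and other scalings, pseudocounts and filters. Functions were tested on simulated data. RPKM used the gene lengths of the table.

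The genes, roles and lists were chosen with earlier results of these data known. All 67 genes are named with their reads. Positions are given for called genes and for Rspo1, Wnt4, Wnt5a, Axin2, Lgr5, Lef1 and Ctnnb1. Of other pathway lists, called genes with at least 100 reads in a library and the 3 with the most reads are named, and of cell type lists the 4 with the most reads. Other genes of these lists, such as Pgr, Prom1, Col6a3, Dcn, Aif1, Camk2a and Myc, were named after their values were seen. RefSeq held promoters for 44 of the genes.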

Additional observations from a re-analysis of the deposited data

How the results depend on the processing

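No paired analysis was possible because ctrl and M2 have 1 library apiece, and a DESeq2 test was not run for the same reason. Each of the 50 genes kept its call under scaling by total reads, DESeq2 size factors or upper quartile, pseudocounts of 0.5 and 5 and a filter of 1 read. Fzd6 and Wnt9a, which were not called, changed sign under total reads. When both libraries had to reach 1 CPM, 39 pathway genes were tested, and 4 rose and 4 fell (797 of all genes rose and 583 fell). Rises such as those of Wnt10a, Wnt6, Dkk2 and Axin2 left the count, because these genes had under 1 CPM in ctrl. With an assumed variation of 0.1 only Wnt16 lost its call. With 0.2, Fzd3, Wnt16, Wnt5a and Wnt7a lost it, and 964 of all genes rose and 691 fell. With 0.4, 2 pathway genes rose and 2 fell, and 175 and 130 of all genes. A 4-fold threshold left 616 and 494 of all genes, and intervals wholly beyond 2-fold left 938 and 679. The median was -0.05 for the 50 genes under total reads and -0.17 for the 39 genes with 1 CPM. With counts under 3 set to 3, a choice made after seeing the data, the ligand median was 1.29. Of 76 other genes named from the lists, Ndp and Adgra2 not included, Mertk lost its call with a pseudocount of 5 and Cdh5 with 0.1. Camk2a, Cdh5, Elf5, Ephb3, Fosl1, Krt7, Mertk, Pecam1 and Tnfrsf19 lost it with 0.2, and 37 genes did with 0.4, Cd44, Plaur, Pgr, Esr1, Prlr and Apcdd1 among them.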
